A study of Mus musculus with 3 samples.

Results

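The 31 genes described here are interferon-stimulated genes, read by their symbols in the deposited tables, where 31 of 33696 listed genes matched (the sensor gene Ddx58 under its current symbol Rigi). Their counts of unique molecular identifiers (UMIs, tags that mark single captured RNA molecules) come from droplet sequencing of single immune cells washed from the right lung lobes of wild-type C57BL/6J mice, 12 weeks old. Exposure lasted 3 hours, to filtered air in 1 group and to ozone at 1 ppm or at 1.5 ppm in the others, and lavage followed 22 to 24 hours later. Lavage cells of 3 to 4 mice made 1 pool and 1 library per group, so the mice of a pool cannot be told apart, no group has a replicate, and differences are given with their counting error and without a test.

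Interferons are secreted proteins that warn cells of infection. Type I interferons bind the receptor IFNAR1/IFNAR2, whose kinases JAK1 and TYK2 activate STAT2. With IRF9 it forms part of a complex that binds interferon-stimulated response elements in gene promoters and turns on antiviral proteins, sensors of foreign nucleic acid, chemokines and factors that feed the loop forward (IRF7) or shut it down (USP18). Alveolar macrophages, the resident phagocytes of the airspace, are a known source of type I interferon during respiratory virus infection, and many of these genes also have a basal level without infection.

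The 3 libraries held from 3233 to 7269 barcodes, and from 42825676 to 95403078 UMIs. After a filter on barcodes, 3479, 2241 and 6577 cells remained for filtered air, 1 ppm and 1.5 ppm, in that order throughout. Alveolar-macrophage-like cells, named from markers such as Chil3 (found in at least 99.95% of them in every library), made up 3311, 2128 and 5663 of these cells, with a median of 13868, 16000.5 and 13080 UMIs. Their median share of mitochondrial UMIs was 4.12%, 3.97% and 2.31%, and the part of this difference in the results was not tested beyond the values given below. In the same macrophages the summed level of 10 neutrophil markers was 76.5, 65.4 and 66.8 UMIs per 1e6 and that of 9 C1q-macrophage and related interstitial markers 12.1, 12.8 and 12.2, with 2, 1 and 0 of the 10 neutrophil markers at 0 UMIs. Libraries shared 2, 7 and 1 barcodes among the cells kept, which is few against the cells compared.

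The promoters of several members carry the letters of the response element. They are shown because the genes divided in the cell data below by the share of their UMIs held by the few macrophages richest in members. Of 31 members, 24 were matched in a RefSeq promoter table (build GRCm38.p6, an earlier build than the one the counts were made on). The search was for GAAA, any 2 bases and GAAA again, on either strand (TTTC, any 2 bases, TTTC), from 250 bases before to 50 bases after each start, with overlapping matches counted. It found a match for 13 of 24 members (54.2%) and for 1079 of 27025 genes of the table (3.99%). A match is a description of letters, not evidence of binding. The sequences below end at the base before the start, run 5′ to 3′ on the strand of the gene, and have the matched letters in capitals. The first 4 are genes read in few macrophages, Isg15 lies between, and Samhd1 was read in nearly every macrophage and has no match in its window.
Ifit1, chr19:34640729-34640888, plus strand: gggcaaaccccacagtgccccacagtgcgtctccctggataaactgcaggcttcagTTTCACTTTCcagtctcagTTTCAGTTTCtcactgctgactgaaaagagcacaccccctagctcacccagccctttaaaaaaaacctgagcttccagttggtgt
Ifit3, chr19:34583369-34583528, plus strand: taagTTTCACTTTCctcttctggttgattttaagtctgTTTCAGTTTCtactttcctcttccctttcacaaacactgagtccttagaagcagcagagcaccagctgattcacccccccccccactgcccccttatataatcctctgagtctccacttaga
Rsad2, chr12:26456453-26456612, minus strand: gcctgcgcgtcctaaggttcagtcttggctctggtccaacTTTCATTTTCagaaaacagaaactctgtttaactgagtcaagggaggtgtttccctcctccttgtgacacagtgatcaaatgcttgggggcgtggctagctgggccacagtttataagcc
Cxcl10, chr5:92348890-92349109, minus strand: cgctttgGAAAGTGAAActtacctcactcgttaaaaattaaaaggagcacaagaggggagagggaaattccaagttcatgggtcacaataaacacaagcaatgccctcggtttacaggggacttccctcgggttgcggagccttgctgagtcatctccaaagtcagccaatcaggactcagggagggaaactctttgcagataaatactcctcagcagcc
Isg15, chr4:156200819-156200978, minus strand: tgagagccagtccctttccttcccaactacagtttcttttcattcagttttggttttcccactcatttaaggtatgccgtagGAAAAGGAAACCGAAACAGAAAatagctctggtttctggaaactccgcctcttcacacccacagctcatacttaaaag
Samhd1, chr2:157135097-157135256, minus strand: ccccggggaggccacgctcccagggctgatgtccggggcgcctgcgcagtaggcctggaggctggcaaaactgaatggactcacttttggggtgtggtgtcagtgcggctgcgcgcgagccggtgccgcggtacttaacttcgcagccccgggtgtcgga

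The matched letters begin 104 and 85 bases before the start in Ifit1, 156 and 122 before it in Ifit3, and 120 before it in Rsad2. In Cxcl10 they lie farther out, at 213 bases, and in Isg15 3 matches overlap in 1 run. By the grouping defined below, matches were not limited to concentrated members, of which 4 of 5 in the table have one, all but Oasl2. Of the evenly spread members in the table, 8 of 14 have one (Stat2, Oas1a, Ifih1, Rigi, Bst2, Trim30a, Gbp2 and Gbp7). Of the other 5, Isg15 has one and Irf7, Ifit2, Ifi47 and Ifi44 have none in the window. Mx1, Usp18, Zbp1, Rtp4, Ifi27l2a, Ifi204 and Parp14 were not matched in the table.

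Over all macrophage-like cells of a library, the members held 39778, 25963 and 62646 UMIs. That is 800.4 (95% Poisson interval 792.5 to 808.3), 694.6 (686.2 to 703.1) and 697.8 (692.3 to 703.3) CPM, where CPM stands for UMIs per 1e6 UMIs of those cells. Both ozone libraries lay below filtered air, at ratios of 0.868 (0.854 to 0.882) and 0.872 (0.861 to 0.883), and they differed from each other by less than the counting interval (ratio 1.005, 0.990 to 1.02). Samhd1 alone gave 296.5, 249.9 and 224.2 CPM of this sum, the sum without it was not computed, and scarce members hardly enter it. All intervals cover counting error alone, and molecules of 1 cell are not independent.

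Gene by gene, members were counted where the 3 libraries together gave at least 100 UMIs in macrophage-like cells, which 28 of 31 did. Usp18 with 73 UMIs, Mx1 with 34 and Ifi44 with 0 did not. At 1 ppm, 7 of 28 were lower than in air by 1.5-fold or more and 0 were higher, while over all 12875 genes with as many UMIs 3.02% were lower and 2.04% higher. Those 7 were Ifit1, Ifit2, Ifit3, Oasl2, Rsad2, Cxcl10 and Rtp4. The members' median log2 ratio (1 UMI added to both sums) was -0.18 against -0.048 for all genes. At 1.5 ppm, 5 of 28 were lower (Irf7, Ifit2, Oasl2, Ifi47 and Cxcl10) and 0 higher, over a background of 4.33% lower and 11.5% higher, and the median was -0.20 against -0.044. Both comparisons use the same filtered air library. Between the ozone libraries, 6 members were higher at 1.5 ppm than at 1 ppm (Ifit1, Ifit2, Ifit3, Oasl2, Rsad2 and Cxcl10) and 2 lower (Irf7 and Ifi47), over a background of 10.3% higher and 3.17% lower. These counts rest on few cells: without the 1% of macrophages richest in the other members, the count of lower members was 0 at 1 ppm, and at 1.5 ppm it was 1 (Ifi47), with Isg15 then 1.5-fold higher. Only 23 members then had 100 UMIs, and Ifit1, Ifit3, Oasl2 and Rsad2 were among those that no longer did, while the log2 ratios of Ifit1 (-2.18) and Rsad2 (-1.05) at 1 ppm were still low. Among cells of 2.5 to 4% mitochondrial UMIs it was 4 and 3, with Rsad2 higher at 1.5 ppm. Without cells of 3 or more UMIs of G2 and M phase genes it was 2 and 1, and 4 members were then higher at 1.5 ppm. Both subsets also left fewer than 28 members with 100 UMIs. The shares over all genes were not computed for any subset, so these counts have no background beside them.

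**Figure D1:**
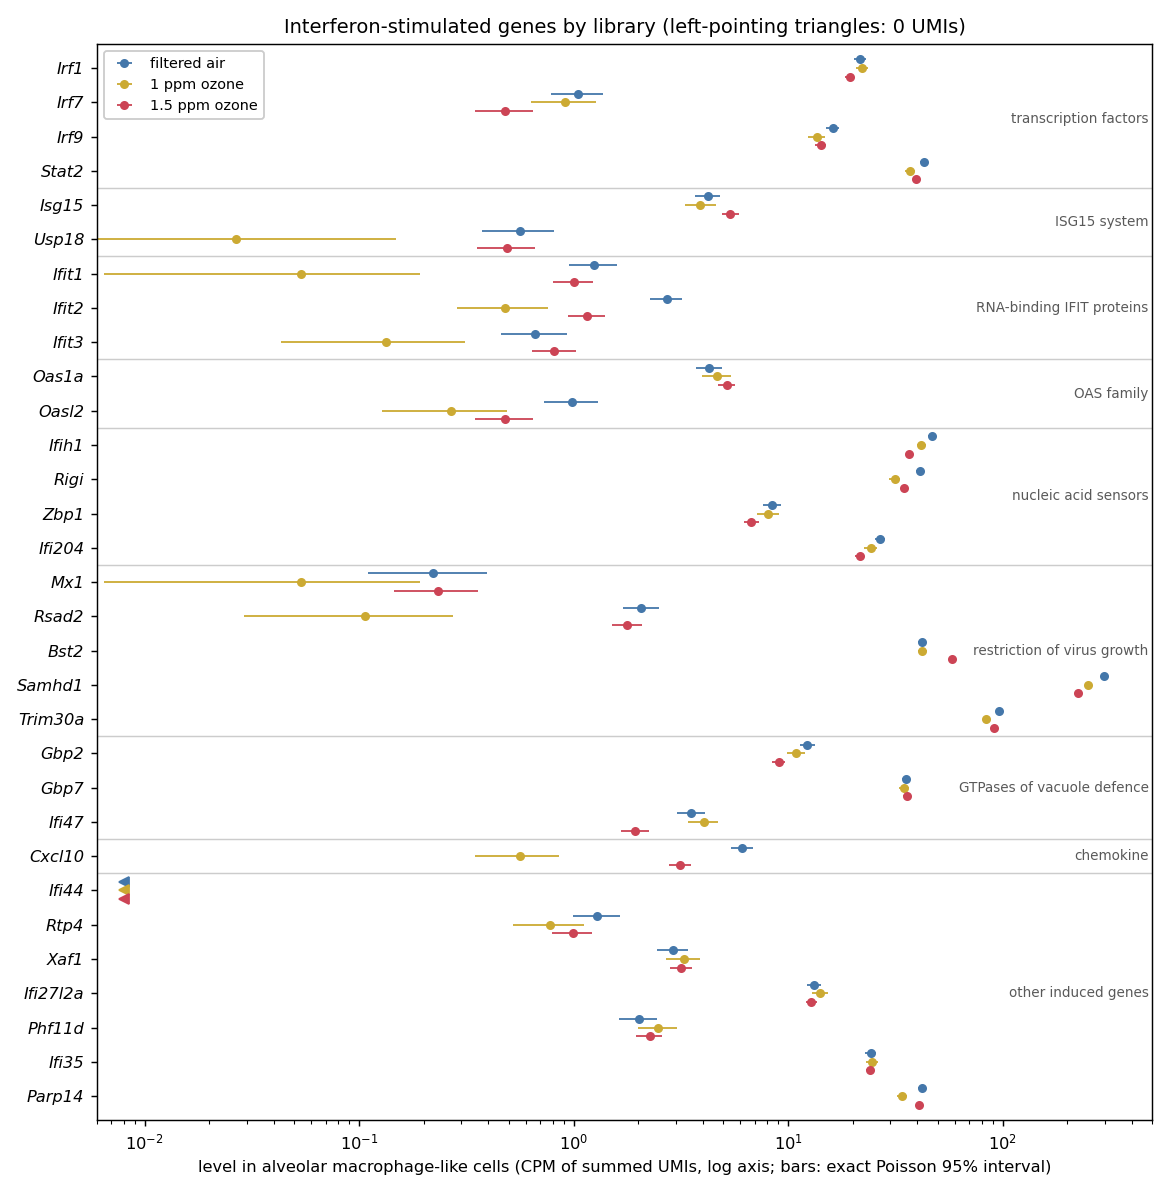
Level of each member (CPM of summed UMIs, log axis) in the alveolar-macrophage-like cells of the 3 libraries, grouped by role; bars are exact Poisson 95% intervals and run off the axis where a level rests on 1 or 2 UMIs, and triangles mark 0 UMIs. The 1 ppm points of Ifit1, Ifit2, Ifit3, Rsad2, Cxcl10 and Oasl2 lie left of the filtered air points, while sensors and transcription factors other than Irf7 lie close together.

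Of the 4 transcription factors, Stat2 and Irf9, partners in the complex that type I interferon activates, stood at 43.3, 37.1 and 39.5 CPM and at 16.1, 13.6 and 14.2 CPM. Their ratios to air were between 0.843 and 0.912 in both ozone libraries. Irf1, which drives both interferon and interferon-induced genes, was 21.6, 22.1 and 19.4 CPM. Irf7, the factor that amplifies type I interferon production, was scarce, with 52, 34 and 43 UMIs, or 1.05 (0.781 to 1.37), 0.910 (0.630 to 1.27) and 0.479 (0.347 to 0.645) CPM. The interval at 1.5 ppm lies below that in air (ratio 0.458, 0.298 to 0.699), and the 1 ppm interval overlaps that in air (ratio 0.869). Without the 2 leading cells per library (below), the 1.5 ppm ratio was 0.406. The 1% of macrophages richest in the other members held 27 of the 52 Irf7 UMIs in air, 3 of 34 at 1 ppm and 13 of 43 at 1.5 ppm. Outside these cells Irf7 was at 0.508, 0.836 and 0.336 CPM, from 25, 31 and 30 UMIs, and no interval was computed for that ratio.

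Isg15 encodes a ubiquitin-like protein that is attached to other proteins during the response, and Usp18 the protease that removes it and blocks the receptor. Isg15 had 210, 146 and 484 UMIs, or 4.22 (3.67 to 4.84), 3.91 (3.30 to 4.59) and 5.39 (4.92 to 5.89) CPM. Its level at 1.5 ppm was 1.28 times that in air (1.08 to 1.51), short of 1.5-fold. Usp18 had 28, 1 and 44 UMIs. The 1 ppm ratio of Usp18, with a single UMI behind it, was 0.0475 (0.00116 to 0.287), and the 1.5 ppm ratio 0.870 (0.530 to 1.45).

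The IFIT proteins bind foreign RNA and block its translation. Ifit1 had 62, 2 and 90 UMIs, or 1.25 (0.956 to 1.60), 0.0535 (0.00648 to 0.193) and 1.00 (0.806 to 1.23) CPM. Ifit2 had 135, 18 and 104 UMIs, or 2.72 (2.28 to 3.21), 0.482 (0.285 to 0.761) and 1.16 (0.947 to 1.40) CPM. Ifit3 had 33, 5 and 73 UMIs, or 0.664 (0.457 to 0.933), 0.134 (0.0434 to 0.312) and 0.813 (0.637 to 1.02) CPM. In all 3 genes the 1 ppm interval lay below those of both other libraries, with ratios to air of 0.0429 (0.00508 to 0.162), 0.177 (0.102 to 0.291) and 0.201 (0.0614 to 0.519). At 1.5 ppm only Ifit2 lay below air (0.427, 0.327 to 0.555), while the intervals of Ifit1 (0.804) and Ifit3 (1.23) overlapped it. Reads of Ifit3 and its near-identical neighbour Ifit3b could be divided by the counting, so the Ifit3 level is uncertain.

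In the OAS family, Oas1a makes the signal molecule that activates RNase L, and was 4.29, 4.66 and 5.18 CPM, with a ratio of 1.09 (0.884 to 1.33) at 1 ppm and 1.21 (1.02 to 1.43) at 1.5 ppm. Oas1a has close paralogs that could share its reads. The related Oasl2 had 49, 10 and 43 UMIs, or 0.986 (0.729 to 1.30), 0.267 (0.128 to 0.492) and 0.479 (0.347 to 0.645) CPM. Oasl2 lay below air in both ozone libraries, at 0.271 (0.123 to 0.542) and 0.486 (0.315 to 0.747).

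The nucleic acid sensors Ifih1 (MDA5) and Rigi (RIG-I), which detect viral RNA, Zbp1, which detects Z-form nucleic acid, and Ifi204, a DNA sensor with close paralogs in its cluster, summed to 123, 106 and 99.8 CPM. Ifih1 was 46.9 (45.0 to 48.9), 41.9 (39.8 to 44.0) and 36.6 (35.4 to 37.9) CPM and Rigi 41.1 (39.3 to 42.9), 31.4 (29.6 to 33.2) and 34.8 (33.6 to 36.1) CPM. The 4 ratios to air ranged from 0.764 to 0.958 at 1 ppm and from 0.781 to 0.848 at 1.5 ppm. None of these reached 1.5-fold.

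Among the genes that restrict virus growth, Rsad2, whose product viperin makes a chain-terminating nucleotide, had 103, 4 and 160 UMIs. That is 2.07 CPM in air, 0.107 at 1 ppm and 1.78 (1.52 to 2.08) at 1.5 ppm, and the ratios to air were 0.0516 (0.0138 to 0.136) and 0.860 (0.667 to 1.11). Samhd1, which depletes deoxynucleotides, was 296, 250 and 224 CPM (ratios 0.843 and 0.756), and was read in 95.02% of macrophages in air. Bst2, or tetherin, which holds budding virions at the cell surface, was 42.3, 42.3 and 58.1 CPM, with a 1.5 ppm ratio of 1.37 (1.31 to 1.45), the highest of the 28 in that comparison. Trim30a, of a family with close copies, was 95.9, 83.8 and 91.5 CPM. The GTPase gene Mx1, which carries a defective allele in C57BL/6 mice, had 11, 2 and 21 UMIs, and its 1 ppm ratio was 0.242 (0.0260 to 1.11).

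Of the GTPases that attack vacuoles of intracellular microbes, Gbp7 was 35.5, 34.9 and 35.7 CPM and Gbp2, a member of a family with close copies, 12.3, 10.9 and 9.04 CPM (1.5 ppm ratio 0.736, 0.662 to 0.818). Ifi47 had 176, 151 and 174 UMIs, or 3.54, 4.04 and 1.94 (1.66 to 2.25) CPM. Its ratios were 1.14 (0.912 to 1.43) and 0.547 (0.441 to 0.679). Ifi47 at 1.5 ppm was thus below both other libraries, and its ratio there without the 2 leading cells per library was 0.543.

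The chemokine gene Cxcl10, whose product draws T cells through CXCR3, had 304, 21 and 283 UMIs, or 6.12, 0.562 and 3.15 (2.80 to 3.54) CPM. Its ratios were 0.0919 (0.0560 to 0.143) and 0.515 (0.437 to 0.608). Most of these molecules sat in single cells, described next, and the 1.5 ppm ratio became 0.922 (0.637 to 1.35) without the 2 leading cells of each library. Without the cluster led by Slc7a11 and Hmox1 it turned to a log2 ratio of 1.98.

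Of the 7 other induced genes, Rtp4, a chaperone of receptor transport, had 64, 29 and 89 UMIs, or 1.29, 0.776 and 0.991 CPM, with ratios of 0.602 (0.375 to 0.948) and 0.770 (0.552 to 1.08). Ifi35 was 24.2, 24.6 and 24.1 CPM, and Parp14, an ADP-ribosyltransferase, was 42.2, 34.0 and 40.8 CPM. Xaf1, Ifi27l2a and Phf11d (of a family with close copies) had ratios between 0.974 and 1.24 in both comparisons. Ifi44 had 0 UMIs in the macrophage-like cells of all 3 libraries.

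How evenly a gene's molecules were spread over cells was measured by ranking the macrophage-like cells of a library by their UMIs of the other 30 members per UMI sequenced, so that a gene never ranks its own cells, and taking the top 1% (33, 21 and 57 cells). By this measure the members divided into groups, set after the values were seen. For 7 of them the top 1% held at least 50% of the UMIs in both air and 1.5 ppm: Usp18, Ifit1, Ifit3, Oasl2, Mx1, Rsad2 and Cxcl10. For 18 it held under 10% in every library, with a range of 1.53 to 9.65% in air, 0.246 to 3.23% at 1 ppm and 1.06 to 7.39% at 1.5 ppm. Those 18 are Irf1, Irf9, Stat2, Oas1a, Ifih1, Rigi, Zbp1, Ifi204, Bst2, Samhd1, Trim30a, Gbp2, Gbp7, Xaf1, Ifi27l2a, Phf11d, Ifi35 and Parp14. They are called evenly spread, which does not mean read in most cells. Over the 3 libraries they were read in 3.17% (Phf11d) to 92.5% (Samhd1) of macrophages. The remaining 6 were Irf7, Isg15, Ifit2, Ifi47, Rtp4 and Ifi44.

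Rsad2 had 90.3% (82.9 to 95.2%) of its UMIs in the top 1% in air and 93.1% (88.0 to 96.5%) at 1.5 ppm. For Cxcl10 the shares were 87.2% and 73.1%, for Ifit1 82.3% and 97.8%, and for Ifit3 84.8% and 87.7%. At 1 ppm the top 1% held 1 of 4 Rsad2 UMIs, 0 of 21 Cxcl10 UMIs, 1 of 2 Ifit1 UMIs and 0 of 5 Ifit3 UMIs. Ifit2 was concentrated in air (74.8%) and less so at 1.5 ppm (40.4%), and Isg15 had 32.9%, 0% and 19.2% in the top 1%. All members together had 5.78% (5.55 to 6.01%), 2.01% (1.84 to 2.19%) and 3.88% (3.73 to 4.03%) of their UMIs there, against 0.929%, 0.745% and 0.641% of all UMIs. The cells of the top 1% had a median of 13375, 15089 and 7287 UMIs, and the other macrophages 13873, 16016 and 13141.5, so at 1.5 ppm the ranking favoured shallow cells.

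**Figure D2:**
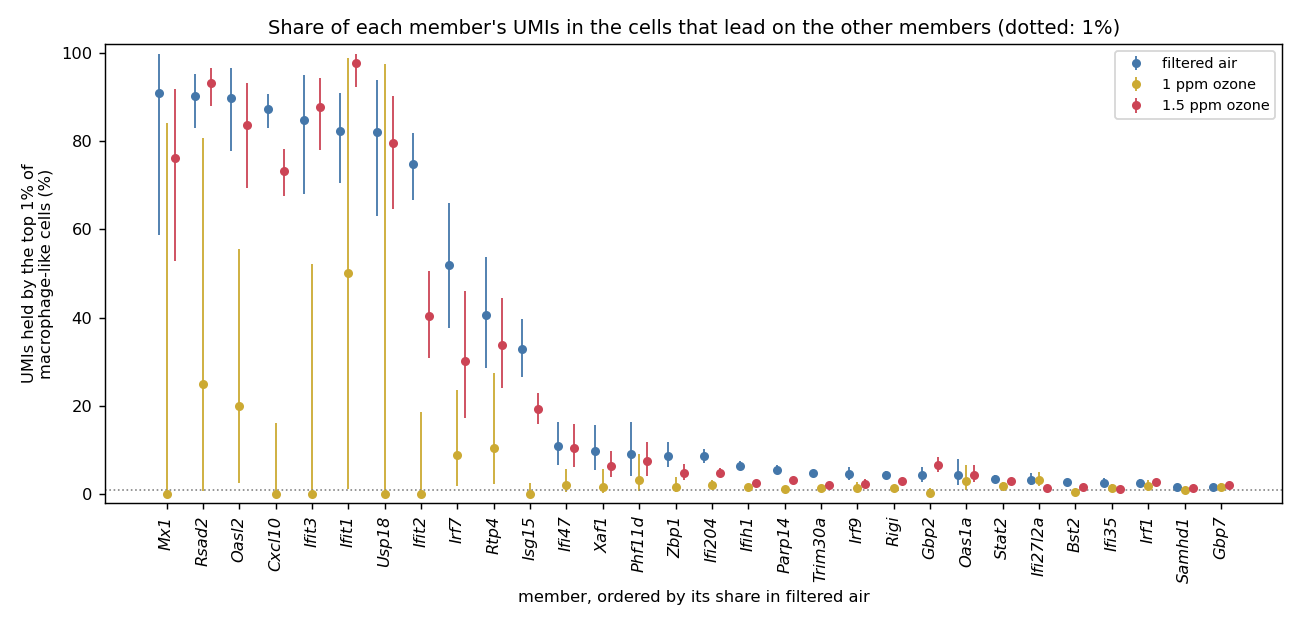
Share of each member's UMIs (percent, with exact binomial 95% intervals) held by the top 1% of macrophage-like cells, ranked by the other members, in each library; Ifi44 is left out at 0 UMIs. In filtered air and 1.5 ppm the 7 genes at the left are above 70%, and 18 genes are under 10% in every library.

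The 7 concentrated genes together had 590, 45 and 714 UMIs in macrophages, or 11.9 (10.9 to 12.9), 1.20 (0.878 to 1.61) and 7.95 (7.38 to 8.56) CPM. The 1 ppm library was at 0.101 (0.0732 to 0.137) of air and the 1.5 ppm library at 0.670 (0.5999 to 0.748). The 18 evenly spread genes together were 775.7, 683.3 and 679.9 CPM, with ratios of 0.881 (0.867 to 0.895) and 0.876 (0.865 to 0.888). Samhd1 alone gave 296.5, 249.9 and 224.2 CPM of this sum, and the sum without it was not computed. Without cells of 3 or more UMIs of G2 and M phase genes the ratios of the 18 were 0.889 (0.873 to 0.906) and 0.950 (0.935 to 0.965). The concentrated genes were chosen for their high share in rich cells of air and 1.5 ppm, so their ratios at 1 ppm are a description, fixed in part by that choice.

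In air and at 1.5 ppm a pair of macrophages carried most of the concentrated molecules. In air, 1 cell with 28810 UMIs held 310 of the 590 (52.5%), with 186 of Cxcl10, 65 of Rsad2, 22 of Oasl2, 21 of Ifit1 and 9 of Usp18. It also had 56 UMIs of Ifit2 and at least 1 UMI of 30 of the 31 members. The next cell in air held 90 (15.3%), of which 70 were Cxcl10, and 76 of the sensor Ifih1. At 1.5 ppm, 1 cell with 24832 UMIs held 352 of 714 (49.3%), with 130 of Cxcl10, 83 of Rsad2, 55 of Ifit1, 44 of Ifit3 and 29 members detected, and a second held 171 (23.9%). At 1 ppm the leading cells held 8 and 7 UMIs, all of Cxcl10.

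The leading cells carried macrophage markers. The levels were below those of the class in both leading air cells and the second 1.5 ppm cell. In the first 1.5 ppm cell the level was near that of its class. The 15 alveolar macrophage markers gave 243 of 28810 and 249 of 30293 UMIs in the leading air cells, against 17090 CPM in that class. At 1.5 ppm they gave 319 of 24832 and 121 of 21643 UMIs, against 13630 CPM. The first cells of air and 1.5 ppm had 0 UMIs of the T, natural killer, B and interstitial macrophage lists. The neutrophil list gave 12 and 30 UMIs in the leading air cells, above the 76.5 CPM of their class. In the leading cells of 1.5 ppm it gave 1 and 0. Both leading air cells came from the cluster led by Slc7a11, Hmox1 and Hspa1b, where 7 of 15 alveolar macrophage markers counted towards its name. They had 173 and 240 UMIs of Hmox1, which encodes haem oxygenase, an oxidative stress gene. The leading 1.5 ppm cells came from other clusters and had 2 and 7. Doublets were not removed, and their part in these cells was not tested.

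**Figure D3:**
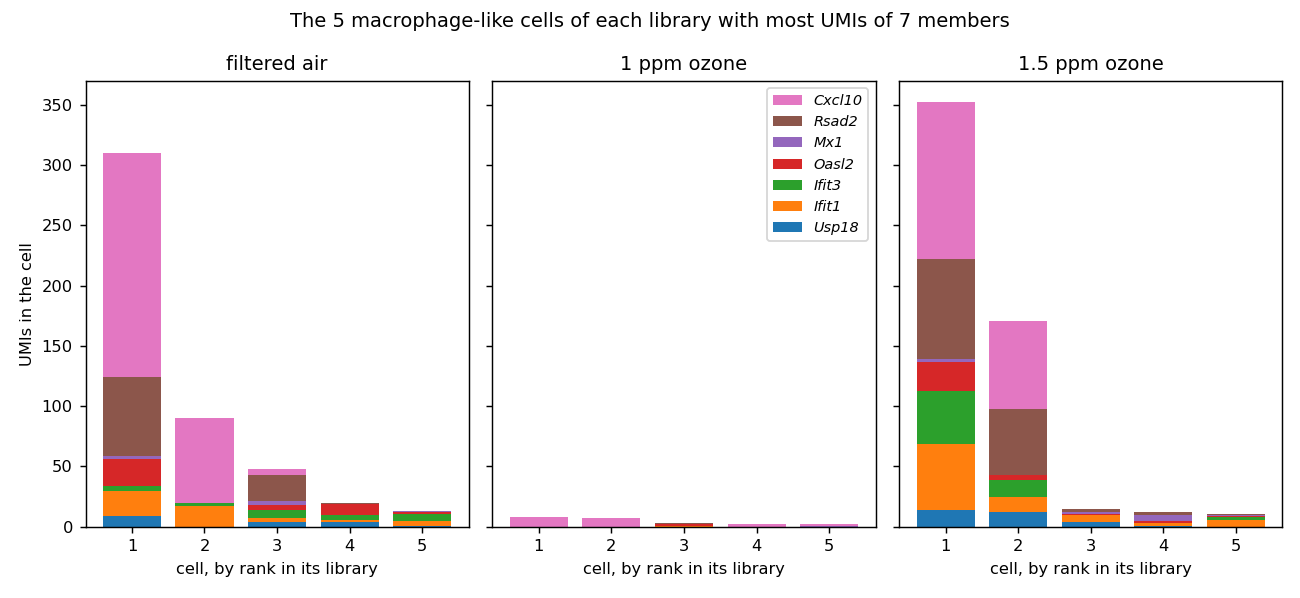
UMIs of the 7 concentrated members in the 5 macrophage-like cells of each library that hold most of them (bars stacked by gene, cells by rank). The first cells of filtered air and 1.5 ppm reach 310 and 352 UMIs, and no cell of the 1 ppm library exceeds 8.

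Counted in cells, 4 or more of the 7 concentrated genes were detected in 5 of 3311 macrophages in air (0.151%, exact binomial interval 0.0490 to 0.352%). At 1 ppm the count was 0 of 2128 (exact interval 0 to 0.173%, and up to 0.141% by the limit of 3 counts). At 1.5 ppm it was 8 of 5663 (0.141%, 0.0610 to 0.278%). The exact intervals of the 3 libraries overlap. With 3 or more as the limit the counts were 10, 1 and 8 cells. With each cell thinned to 5000 UMIs, 3 or more of these genes were found in 4 of 3254 cells, 0 of 2096 and 3 of 5348, and the intervals again overlap. Overlap of intervals does not decide whether the 1 ppm share differs from the others, and no test was made. After the same thinning, 10 or more of all members were detected in 10, 0 and 6 cells. The median macrophage had 6, 6 and 5 members detected at its own depth and 3 in each library after thinning.

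Leaving out the 2 leading cells of each library, a choice made after seeing the data, lowered the concentrated sum to 190, 30 and 191 UMIs. The 1 ppm ratio was then 0.210 (0.138 to 0.310) and the 1.5 ppm ratio 0.556 (0.453 to 0.683), both below air. The 1.5 ppm value turned under other choices of cells. The cluster led by Slc7a11 and Hmox1 held 419 of the 590 UMIs in air and 14 of 714 at 1.5 ppm, and without it the sum was 3.57, 1.21 and 7.89 CPM, a ratio to air of 0.340 (0.239 to 0.474) at 1 ppm and 2.21 (1.87 to 2.63) at 1.5 ppm. Without cells of 3 or more UMIs of G2 and M phase genes the 1.5 ppm ratio was 2.41 (1.97 to 2.95). Without the 2 leading cells of each library single genes moved as well: Ifit3 at 1.5 ppm went from 1.23 times air to 0.319 (0.157 to 0.625), Rsad2 from 0.860 to 0.320 (0.180 to 0.556) and Ifit1 from 0.804 to 0.507 (0.271 to 0.944). With those cells left out fewer members had 100 UMIs (24), and the counts of lower members were 2 at 1 ppm (Ifit2 and Cxcl10) and 3 at 1.5 ppm (Irf7, Ifit2 and Ifi47).

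**Figure D4:**
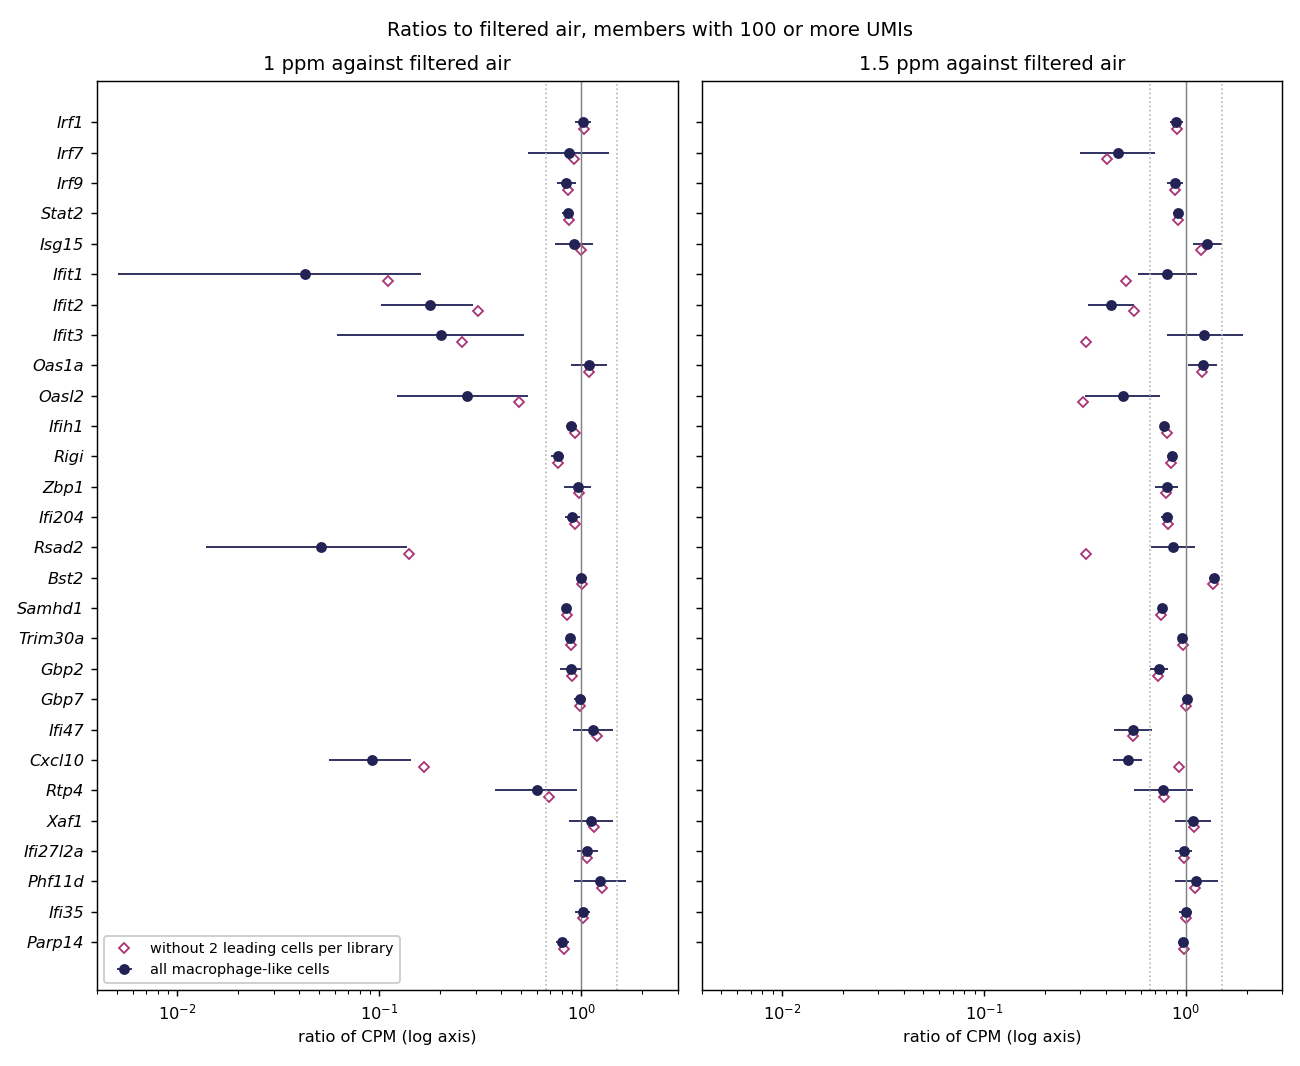
Ratio of CPM to filtered air (log axis) for the 28 members with at least 100 UMIs, at 1 ppm and 1.5 ppm, over all macrophage-like cells (filled, with exact 95% intervals) and without the 2 leading cells of each library (open); dotted lines mark 1.5-fold. At 1.5 ppm the open points of Ifit3 (0.319) and Rsad2 (0.320) lie left of the filled ones (1.23 and 0.860), and that of Cxcl10 (0.922) lies right of its filled one (0.515).

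Macrophage clusters, made without the member genes, differed in the member sum. The cluster led by Slc7a11 and Hmox1 had 1281 (1229 to 1335) CPM in air, from 95 cells, 870.1 at 1 ppm, from 13 cells, and 701.0 at 1.5 ppm, from 73 cells. Without its 2 richest cells in each library it had 831.4 (788.9 to 875.6), 817.0 (703.5 to 943.6) and 669.9 (619.6 to 723.2) CPM. A cluster led by the metallothionein genes Mt2 and Mt1 had 946.9 (920.3 to 974.0), 698.0 (672.6 to 724.1) and 731.1 (715.6 to 746.8) CPM. In it 1 cell held 710 of the 8461 member UMIs at 1.5 ppm, and 1 cell held 190 of 4806 in air. Its sums without such cells were not computed. The cluster led by the histone genes H1f5 and H2ac24 and by Pclaf, genes of DNA replication, had 489.3, 523.8 and 525.1 CPM, and in it no ozone value lay below air.

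Genes outside the list were ranked by their smallest ratio, over the 3 libraries, between the same top 1% and the other macrophages. A gene needed at least 20 UMIs in the top cells and a UMI in the other macrophages of every library. Genes without a UMI in the other macrophages of any library were thus left out. The 10 highest were Oasl1, Oas3, Ifitm3, Phf11b, Gbp3, Ifi211, Oas1b, Slfn1, H2-T24 and Sema4d. The first 8 belong to families known to respond to interferon. Oasl1 had 41 of its 42 UMIs in the top 1% in air, which is 41 against 1, then 2 against 1 at 1 ppm and 32 against 5 at 1.5 ppm. Oas3 had 37 against 10, 2 against 4 and 17 against 19. The ranking rests on thin counts at 1 ppm, where 9 of these 10 genes had at most 4 UMIs in the top cells.

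Outside the alveolar-macrophage-like class, other cells held 2.40% (2.26 to 2.56%), 2.66% (2.46 to 2.85%) and 5.04% (4.88 to 5.21%) of the member UMIs, close to their 2.18%, 2.02% and 4.31% of all UMIs. The class sums of the list, over the 3 libraries, were 1403 CPM in 91 neutrophil-like cells, 1266 in 95 migratory-dendritic-like cells, 913.1 in 170 interstitial-macrophage-like cells, 901.6 in 98 T-like cells and 382.1 in 144 airway-epithelial-like cells, against 725.9 in alveolar macrophages. In the migratory-dendritic-like class the sum was 1015, 1063 and 1473 (1371 to 1580) CPM. A single cell of 9365 UMIs with 29 members detected held 235 of the 778 member UMIs at 1.5 ppm, and the class was at 1046 (960.3 to 1138) CPM without it. That cell held 20 of the 21 Ifit1 UMIs, and all 19 Ifit2 and 13 Ifit3 UMIs of the class. A neutrophil-like cell at 1.5 ppm, with 2763 UMIs, held 106 member UMIs, 32 of them Rsad2, and without it that class went from 1358 to 921.4 CPM.

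Several scarce members of the macrophages were, by contrast, spread over many cells of another class. Mx1 had 87 UMIs in 28 of 95 migratory-dendritic-like cells, or 87.0 CPM, against 0.192 CPM and 0.189% of cells in alveolar macrophages (median depths 9321 and 13939 UMIs), and no single cell held more than 13. These UMIs were 36 from 27 air cells, 7 from 15 cells at 1 ppm and 44 from 53 cells at 1.5 ppm. Cells outside the macrophage class held 77.6% (63.4 to 88.2%), 83.3% (51.6 to 97.9%) and 72.7% (61.4 to 82.3%) of all Mx1 UMIs.

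Oasl2 had 69 UMIs in 35 of 91 neutrophil-like cells, 256.1 CPM at a median depth of 2389 UMIs, and 105 UMIs in 33 of 170 interstitial-macrophage-like cells, 54.4 CPM. Oasl2 was read in 0.351% of alveolar macrophages, at 0.577 CPM. Of all its UMIs, 41.0%, 69.7% and 77.2% lay outside the macrophages. Over all cells of a library Oasl2 was at 1.63, 0.865 and 2.01 CPM. Its log2 ratio at 1.5 ppm was 0.29 there, from 83 UMIs in air and 189 at 1.5 ppm, against -1.04 in macrophages. No interval was computed for the all-cell ratio, so a level above air is not shown. The neutrophil-like class itself had 1, 11 and 79 cells.

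Usp18 had 29 UMIs in 20 migratory-dendritic-like cells and 25 UMIs in 23 interstitial-macrophage-like cells, and at 1 ppm 93.8% of its 16 UMIs lay outside macrophages. Ifi47 had 31 UMIs in 22 of 98 T-like cells, 66.1 CPM, 28 of them at 1.5 ppm, where 72 of these cells were read. Irf1 was 103 CPM and Gbp2 52.0 CPM in migratory-dendritic-like cells, at 4.99 and 5.02 times alveolar macrophages. Ifi44, with no UMI in macrophages, had 6 UMIs, each in a different airway-epithelial-like cell, 1 at 1 ppm and 5 at 1.5 ppm. Other members went the other way. Against alveolar macrophages, 12 members were 2-fold or more higher, with 10 UMIs, in migratory-dendritic-like cells and 5 were 2-fold or more lower. These counts were 9 and 1 in interstitial-macrophage-like, 7 and 8 in neutrophil-like, 5 and 5 in T-like and 3 and 11 in airway-epithelial-like cells. The lower counts have no UMI floor, and the shares over all genes were not counted. Some of the higher counts rest on 1 cell. In migratory-dendritic-like cells 1 cell held 20 of 21 Ifit1, 19 of 19 Ifit2, 13 of 13 Ifit3 and 30 of 49 Isg15 UMIs. In neutrophil-like cells 1 cell held 32 of 33 Rsad2 and 12 of 14 Isg15 UMIs.

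**Figure D5:**
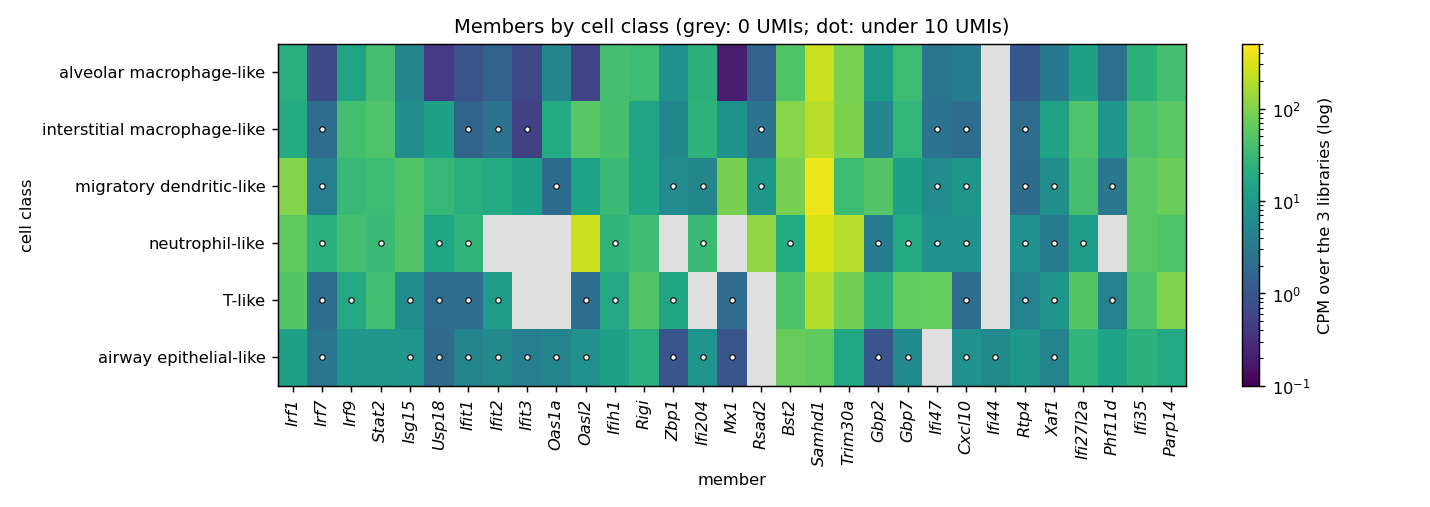
Level of each member (CPM over the 3 libraries, log colour scale) in 6 named cell classes; grey marks 0 UMIs and a dot marks levels that rest on under 10 UMIs. Mx1 is brightest in migratory-dendritic-like cells (87.0 CPM) and Oasl2 in neutrophil-like cells (256.1 CPM), while both are dark in alveolar macrophages.

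The rest of the pathway was read from lists of genes, whose counts stand against the same shares over all genes (3.02% lower and 2.04% higher at 1 ppm, 4.33% lower and 11.5% higher at 1.5 ppm). Of 20 interferon genes, 4 had any UMI in the cells kept, and Ifnb1 had none. Ifnk, a type I interferon gene, had 25, 12 and 54 UMIs in macrophages, and Ifnab and Ifnz had 1 UMI each, at 1.5 ppm. Ifng, the type II interferon, was found in T-like cells only, with 1 UMI at 1 ppm and 13 UMIs in 6 of 72 cells at 1.5 ppm. None of the ligands had a UMI in the top 1% of macrophages. The counting intervals of their summed ratio to the other macrophages were 0 to 16.96, 0 to 47.96 and 0 to 10.55. These few cells thus held too few UMIs to tell a lower from a higher ligand level.

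The receptor genes were present at like levels: Ifnar1 was 22.1, 19.5 and 23.1 CPM, Ifnar2 79.6, 80.4 and 75.8, and 0 of 5 receptors with enough UMIs were 1.5-fold lower or higher at either dose. The same held for 0 of 5 kinases and STATs, with Tyk2 at log2 ratios of -0.16 and -0.40. Of 15 sensors and adaptors, 0 differed by that much at 1 ppm and 1 was lower at 1.5 ppm, the adaptor gene Ticam1 (8.89, 7.95 and 5.78 CPM).

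Of 8 negative regulators, Socs1 was lower at 1 ppm, with 62, 30 and 161 UMIs or 1.25, 0.803 and 1.79 CPM, and a 1 ppm ratio whose interval reaches 1 (0.643, 0.402 to 1.01). Socs3, which curbs STAT3 signals, was higher at 1.5 ppm, at 2.98, 4.36 and 9.01 CPM (ratio 3.03, 2.54 to 3.63). Of 59 further interferon-induced genes, 36 had 100 UMIs, of which 0 were lower or higher at 1 ppm and 2 were lower at 1.5 ppm, Parp10 (14.6, 14.0 and 9.54 CPM) and Slfn4 (89, 45 and 106 UMIs, or 1.79, 1.20 and 1.18 CPM). The medians of the 36, -0.11 and -0.18, lay below those of all genes. Scarce genes of this list are not in these counts, and some were lower at 1 ppm: Oasl1 had 42, 3 and 37 UMIs (1 ppm ratio 0.0950, 0.0188 to 0.297) and Oas3 had 47, 6 and 36 (0.170, 0.0593 to 0.398).

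Of 26 genes for interferon-gamma-induced GTPases and antigen presentation, 21 had 100 UMIs, of which 2 were lower at 1 ppm, Gbp5 (3.40, 2.01 and 2.73 CPM) and Gbp6 (1.41, 0.910 and 1.44 CPM). At 1.5 ppm 2 of 21 were higher, a share near that of all genes: Ciita, the master switch of MHC class II genes (7.49, 6.47 and 16.3 CPM), and the proteasome activator gene Psme2 (89.7, 99.3 and 138 CPM). In the same library Ifi47 and Irf7 of the member list were lower, as given above.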

How the data were processed

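The deposited files hold raw UMI counts for each gene in each barcode. Per the file headers these came from Cell Ranger 8.0.0. The submitters' processing notes name the build GRCm39. The use of intronic reads is not stated in the labels or headers. The kit reads the 3′ end of transcripts, per the labels' protocols, so levels are not divided by gene length and are not compared between genes. From the counts, barcodes with at least 500 UMIs, 300 genes and at most 10% mitochondrial UMIs were kept, which removed 34.2%, 30.6% and 9.07% of barcodes for mitochondrial share in air, 1 ppm and 1.5 ppm. No doublets were removed.

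Clustering left out the members and mitochondrial, ribosomal protein and a few sex-linked genes, and used 2000 variable genes and 30 principal components (scanpy 1.11.5). A graph of 15 neighbours gave 19 Leiden clusters at resolution 1.0 (leidenalg 0.10.2 with igraph 0.11.9), named from 15 marker lists, of which 12 were alveolar-macrophage-like. UMIs were summed per library and class. Intervals are 95%: exact Poisson for levels, exact conditional for ratios, Clopper-Pearson for shares. The limit of a count of 0 is that of 3 counts. With 1 library per group no test was possible. The functions, run in Python 3.11.15 with scipy 1.17.1, numpy 2.4.6 and pandas 2.3.3, were tested on simulated data. Alternatives were other cell filters and cell subsets, scalings, gene floors, rankings and a coarser clustering.

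Named members are those 1.5-fold or more from air with at least 100 UMIs, with every library's value, and up to 2 others per role. Of each pathway list up to 4 genes were eligible, by absolute log2 ratio. Irf1, Trim30a, Mx1, Zbp1, Ifi204, Xaf1, Ifi27l2a, Phf11d and Ifnar2 were added to this rule after values were seen. The concentrated and evenly spread groups were also set after values were seen, as were members named in other cell classes. Genes outside the list are the 10 with the highest smallest ratio between the top 1% and other macrophages, within the limits given with them. Mitochondrial, ribosomal protein, a few sex-linked and predicted genes (Gm and Rik symbols) were not ranked. The members and lists were chosen with earlier results of these data known.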

Additional observations from a re-analysis of the deposited data

How the results depend on the processing

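No paired analysis was possible because each group is 1 pooled library. At 1 ppm, 7 lower members became 4 among cells of 2.5 to 4% mitochondrial UMIs, 0 without the top 1% of macrophages, 2 without cells of 3 or more UMIs of G2 and M phase genes, 4 without the Slc7a11 and Hmox1 cluster and 2 without the 2 leading cells per library, an alternative chosen after seeing the data. At 1.5 ppm, 5 lower became 3, 1, 1, 2 and 3 in that order, and 0 higher became 1 over all cells (Ifit3), 1 in the mitochondrial window (Rsad2), 1 without the top 1% (Isg15), 4 without cycling cells (Isg15, Rsad2, Cxcl10 and Phf11d) and 4 without the cluster (Ifit1, Ifit3, Rsad2 and Cxcl10). Some of these subsets leave fewer members with 100 UMIs (22 without cycling cells, 23 without the top 1%, 24 in the window and without the 2 leading cells). The shares over all genes were not computed for the subsets. The stricter filter (2000 UMIs, 1000 genes, 5% mitochondrial), means of each cell's CPM, centring, no added UMI and a floor of 20 UMIs kept both counts of lower members within 1.5 times. The medians ranged from -0.24 to -0.0504 at 1 ppm, and from -0.21 to 0.0456 at 1.5 ppm, above 0 only without cycling cells.

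Among members past 1.5-fold, the log2 ratios that turned were, without the top 1%, Ifit3 (0.41) and Oasl2 (0.99) at 1 ppm and Cxcl10 (0.088) at 1.5 ppm. At 1.5 ppm Oasl2 turned over all cells (0.29) and without cycling cells (0.019), and Cxcl10 without cycling cells (2.24) and without the cluster (1.98). The setting without cycling cells leaves out both leading cells of air (37 and 15 G2 and M phase UMIs) and keeps the first of 1.5 ppm (0), and the setting without the cluster also leaves out both of air. The causes of the other turns were not tested. Of members within 1.5-fold, 16 values at 1 ppm and 25 at 1.5 ppm also changed sign, 2 and 12 of them beyond the counting interval. These include, without the top 1%, Irf7 (0.71) and Isg15 (0.46) at 1 ppm, and at 1.5 ppm Ifit1 and Rsad2 without cycling cells (1.42 and 1.27) and without the cluster (0.91 and 1.33). Of all members' log2 ratios under these settings, 286 of 308 at 1 ppm and 262 of 308 at 1.5 ppm stayed within the counting interval of the value reported. These totals include the floor of 20 UMIs and no added UMI, which could not move a value out and kept 28 of 28 each. The fewest kept were 20 of 28 at 1 ppm, without the top 1%, and 13 of 28 at 1.5 ppm, without cycling cells.

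The share of the top 1% in air, 1 ppm and 1.5 ppm was 6.32%, 3.46% and 6.48% ranked by the raw sum, 5.70%, 3.05% and 4.6% after thinning to 5000 UMIs, 6.34%, 2.01% and 4.06% with the stricter filter and 11.6%, 8.08% and 9.198% for the top 5%. The 1 ppm share was the lowest in each. In each, cells were ranked by the members they were scored on, so the size of a share is fixed in part by the ranking. Cells outside the macrophage class held 2.57%, 2.56% and 4.70% with the stricter filter and 2.25%, 2.27% and 4.99% at Leiden resolution 0.5. Depth limits Usp18, Mx1 and most 1 ppm values of concentrated genes, which rest on 1 to 21 UMIs.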

Other observations

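Barcodes left out for more than 10% mitochondrial UMIs carried the members at 696.8, 594.5 and 535.8 CPM in filtered air, 1 ppm and 1.5 ppm, from 5943, 2780 and 820 UMIs. They lay below the cells kept (802.2, 699.1 and 703.1 CPM) in each library, and air was the highest among them as well.

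Cell clusters left unnamed also held members. A cluster whose leading genes were Ccl4, Ccl3 and Thbs1, with 0, 1 and 248 cells, had 602.4 (545.6 to 663.5) CPM at 1.5 ppm. A cluster of low depth led by haemoglobin genes had 982.2, 640.5 and 681.4 CPM, from 67, 41 and 257 UMIs.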
